A study of Homo sapiens with 6 samples.

Results

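The genes described here are 10 that write, erase or read N6-methyladenosine (m6A), the methyl mark that cells place on adenosines inside messenger and long noncoding RNAs. They were taken by gene name from the deposited expression table, and all 10 of 10 were found among its 29153 genes. The writers are METTL3, METTL14 and WTAP, the erasers are FTO and ALKBH5, and the readers are YTHDF2, YTHDC1, IGF2BP1, IGF2BP2 and IGF2BP3. RNA was sequenced from HepG2, an established human line derived from a liver cancer, 72 h after lentivirus carrying a control hairpin (shNC, 3 libraries) or a hairpin against the long noncoding RNA LINC01977 (shLINC01977, 3 libraries). Both groups received lentivirus, and the study selected infected cells with puromycin. The labels number the hairpin of the knockdown libraries sh3, and the study lists a single sequence against LINC01977, which is taken here to be that hairpin. In addition, no source says whether the 3 libraries of a group came from separate cultures, so the p-values measure only the spread between these samples.

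m6A is laid down in the nucleus by a complex in which METTL3 carries the catalytic activity, METTL14 pairs with METTL3 and helps to hold the RNA, and WTAP is an adaptor that brings the pair to nuclear speckles. FTO and ALKBH5 are dioxygenases that remove the methyl group. YTHDF2 brings methylated RNA to decay in the cytoplasm, and YTHDC1 reads the mark in the nucleus, where it acts on splicing and export. The IGF2BP proteins bind methylated transcripts and protect them from decay, and IGF2BP1 and IGF2BP3 are oncofetal, largely silent in adult liver and often active again in liver cancer, while IGF2BP2 stays expressed in many adult tissues. The study examined IGF2BP2 as a reader of LINC01977, and the comparison here asks whether the RNAs of the m6A machinery themselves moved when LINC01977 was targeted.

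The transcript that links IGF2BP2 to these samples is LINC01977 (ENST00000576963, 1788 nt, chromosome 17, plus strand, GRCh38), which is annotated as noncoding and so has no UTR. Its sequence was searched on the sense strand for GGACT, the commonest form of the m6A consensus, and for TGGAC, the core reported for IGF2BP binding, which can overlap GGACT by 4 letters. Each occurred 1 time, both in exon 3. They are shown with 10 bases on each side, the motif in capitals, beside the target of the hairpin that the study lists.
GGACT site, chr17:79826130-79826154: agcagagcagGGACTgaatcccaag
TGGAC site, chr17:79826746-79826770: gttcctaattTGGACactggtttac
Listed hairpin target, chr17:79826182-79826202: gcattcgtcttccctggattt
The GGACT motif covers nucleotides 224 to 228 of the transcript, the hairpin target 266 to 286 and the TGGAC motif 840 to 844. Among 3855 noncoding transcripts within 20% of this length, 81.5% held at least 1 GGACT and 84.1% at least 1 TGGAC, with a median of 2 for each motif. The presence of these letters is therefore common and says nothing of methylation or binding. The study names GGAC as the site, which both motifs contain and which was not counted on its own here. The study also reports separate assays, which are not part of these data. By RNA immunoprecipitation it reports m6A on LINC01977 in HepG2 and MHCC97H cells. Binding of IGF2BP2 is reported from pulldown and immunoprecipitation in MHCC97H cells. The hairpin target shared no run of more than 9 bases with any annotated transcript of the 10 m6A genes, and the control hairpin no run of more than 8.

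The libraries held between 49929024 and 60441515 counts. LINC01977, the targeted gene, had counts of 4, 0 and 16 in the shNC libraries and 0, 0 and 4 in the shLINC01977 libraries, so whether it was reduced could not be read at this depth (log2FC, the log2 fold change of shLINC01977 over shNC given ± its standard error, -2.12 ± 1.96, adjusted p = 0.580 in edgeR's fit of all listed genes). Without shLINC01977 replicate 3 its log2 fold change was -5.73, and without shNC replicate 3 it was -0.52. The study reports that it checked the knockdown in HepG2 cells by quantitative PCR, which is not part of these data. The liver label held, with ALB between 694 and 1515 FPKM and AFP between 974 and 1328 FPKM in all 6 libraries. TTR was between 9.21 and 12.2 FPKM and HNF4A between 5.22 and 8.25 FPKM. The summed FPKM of 8 hepatocyte markers was lower after knockdown, 3097 to 3159 against 4375 to 4742. Of the 8, 6 fell at an edgeR adjusted p under 0.05, against 8.07% of all tested genes. APOB (log2FC 0.0074, edgeR adjusted p = 0.902) and TTR (log2FC -0.17, edgeR adjusted p = 0.322) did not pass. The summed FPKM of 11 fibroblast, endothelial and leukocyte markers (9 of them listed) was 6.62 to 8.60 after knockdown and 4.35 to 4.84 in shNC libraries, with PTPRC at 0 in 5 libraries, COL3A1 at 0 in 5 libraries, and DCN and CD3E not listed. Of the 3 that could be tested, the fibroblast marker PDGFRB rose (log2FC 1.47 ± 0.21, edgeR adjusted p = 0.00620), from 0.411 to 0.706 FPKM in shNC libraries to 1.49 to 1.89 FPKM after knockdown. COL1A1 was at 2.16 to 3.37 FPKM in shNC libraries and 3.98 to 5.65 FPKM after knockdown (log2FC 0.73 ± 0.19, edgeR adjusted p = 0.0504). The leukocyte marker CD14 had a negative value (log2FC -0.40 ± 0.30, edgeR adjusted p = 0.409). It was at 0.614 to 1.29 FPKM in shNC libraries and 0.679 to 0.834 FPKM after knockdown. Among the endothelial markers, too low to be tested, PECAM1 was at 0.199 to 0.282 FPKM in shNC libraries and 0.176 to 0.277 FPKM after knockdown. In the same order CDH5 was at 0.0611 to 0.144 and 0.00853 to 0.0330 FPKM, and VWF at 0.00585 to 0.0417 and 0.0109 to 0.0369 FPKM. The higher sum thus lay mainly in COL1A1 and PDGFRB. In bulk RNA, fewer cells of a type and less RNA per cell cannot be told apart, and the part that either marker shift plays in the values below was not tested.

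None of the 10 m6A genes changed at an adjusted p under 0.05 when shLINC01977 libraries were compared with shNC libraries. The test was edgeR's quasi-likelihood test on counts, with p-values adjusted by Benjamini-Hochberg over the 13452 genes whose FPKM averaged 0.5 or more. Over all those genes 2033 passed, or 15.1%, with 7.05% higher and 8.07% lower. DESeq2 on the same counts also called 0 of the 10, where it called 21.1% of all tested genes, and limma on log2(FPKM + 0.1) called 2 of the 10 and 14.9% of all tested genes. At an unadjusted p under 0.05, 5 of the 10 genes passed, 4 higher (METTL3, METTL14, YTHDC1 and IGF2BP1) and 1 lower (ALKBH5), against 30.5% of all tested genes (15.1% higher and 15.4% lower). In the same 5 genes the 3 knockdown libraries lay wholly on 1 side of the 3 control libraries, which was so for 37.1% of all tested genes (18.8% higher and 18.3% lower). By the study's own limits, a 2-fold difference and an unadjusted p no higher than 0.05, 0 of the 10 passed, against 2.6% of tested genes. The median log2 fold change was 0.038 over the 10 genes and -0.0010 over all tested genes, and the median size of the change, leaving out its sign, was 0.16 and 0.18.

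The calls depended on the scaling for a pair of members. When counts were scaled by library totals in place of TMM, METTL3 had a log2 fold change of 0.21 (adjusted p = 0.0409) and IGF2BP1 of 0.16 (adjusted p = 0.0252). With limma on log2(FPKM + 0.1) METTL3 was at 0.20 (adjusted p = 0.0432) and IGF2BP1 at 0.16 (adjusted p = 0.0408), so that 2 of the 10 were called higher in each of these settings. The median over all tested genes moved to 0.065 on the log2 scale with library totals and to 0.063 with limma on log2(FPKM + 0.1). Like library totals, FPKM is scaled to sequencing depth without TMM, so these settings are not independent of each other. Library totals called 1455 genes higher and 768 lower, or 16.5% of tested genes, against 948 and 1085 with TMM.

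**Figure D1:**
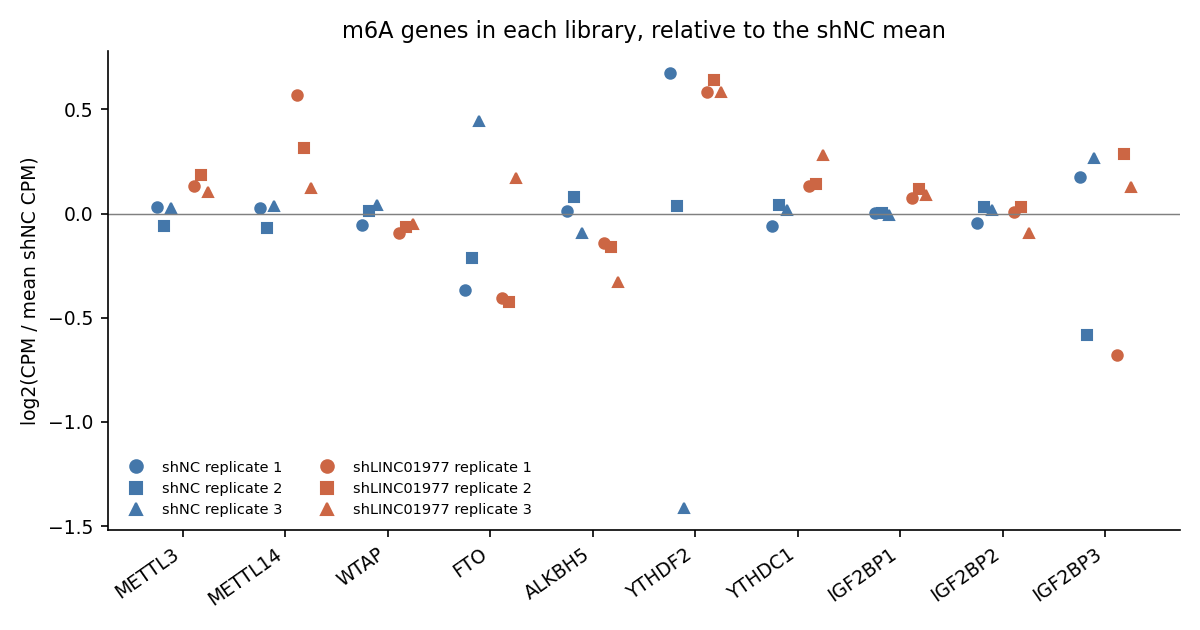
Level of each m6A gene in each library, as the log2 ratio of its CPM (counts scaled by TMM to a common library size) to the mean of the shNC libraries, with 1 point per library. METTL3, METTL14, YTHDC1 and IGF2BP1 lie higher and ALKBH5 lower in all knockdown libraries, while YTHDF2, IGF2BP3 and FTO each have libraries far from the others of their group.

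IGF2BP2 (ENSG00000073792, chromosome 3, 185643739 to 185825056, minus strand), the reader that the study linked to LINC01977, differed between groups by less than the spread of the libraries. Its CPM, the count scaled by TMM to a common library size, was 125, 132 and 131 in the shNC libraries and 130, 132 and 121 in the shLINC01977 libraries. The groups overlapped fully, and the lowest value was shLINC01977 replicate 3. Its log2FC was -0.016 ± 0.052 (SE, edgeR adjusted p = 0.872, p = 0.7 in a two-sided exact permutation test, the smallest such a test can give with 3 libraries a side being 0.1). The 95% interval of the fold change ran from 0.907 to 1.08. The sign of so small a value turned with the scaling, to 0.049 with library totals and 0.048 with limma on log2(FPKM + 0.1). IGF2BP2-AS1, an antisense gene inside IGF2BP2, had at most 4 counts in a library and shares no exon bases with it. The study places IGF2BP2 upstream of LINC01977, as a protein that stabilizes it, which these values do not test. In other cell lines it had already reported IGF2BP2 RNA unchanged by knockdown or by overexpression of LINC01977.

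IGF2BP1 (ENSG00000159217, chromosome 17, 48997412 to 49055650), a close paralog that binds MYC and IGF2 RNA and stabilizes that of MYC, was the most abundant of the 10 genes. Its CPM was 424, 424 and 421 in the shNC libraries and 445, 459 and 449 in the shLINC01977 libraries. All knockdown libraries were above all control libraries, by a small margin. In edgeR this gave a log2FC of 0.093 ± 0.033 (SE, adjusted p = 0.117), or 1.07-fold with a 95% interval from 1.01 to 1.13. The libraries of a group agreed closely for IGF2BP1, with a within-group SD of 0.016 on the log2 CPM scale against a median of 0.13 over all tested genes.

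IGF2BP3 (ENSG00000136231, chromosome 7, 23310209 to 23470467, minus strand), the third paralog, varied between libraries of the same group far more than between groups. Its CPM was 107, 63.3 and 114 in the shNC libraries and 59.2, 116 and 104 in the shLINC01977 libraries. The low libraries were shNC replicate 2 and shLINC01977 replicate 1, and the other 4 lay between 104 and 116 CPM. The edgeR estimate on the log2 scale was -0.032 ± 0.30 (SE, adjusted p = 0.959), and its 95% interval reached from 0.592-fold to 1.62-fold. Without shLINC01977 replicate 1 the log2 fold change was 0.21, and without shNC replicate 2 it was -0.25. IGF2BP3 shares 1521 exon bases with MALSU1 on the opposite strand, which had 1266 to 2240 counts per library, and whether the counting used strand is not given in the sources used here.

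Within each library the IGF2BP family was led by IGF2BP1, which made up 53.0% to 58.7% of the summed FPKM of the 3 genes, followed by IGF2BP2 with 29.4% to 34.0% and IGF2BP3 with 8.34% to 15.4%. These shares depended on the length used, and with counts over the longest transcript, an alternative chosen after seeing the data, the shNC mean of IGF2BP3 was 20.4% in place of 13.05% and that of IGF2BP1 47.2% in place of 54.8%. FPKM, fragments per kilobase of exon scaled to sequencing depth, is used here because levels are compared between genes. The summed FPKM of the family was 67.4 ± 2.2 in shNC libraries and 72.5 ± 3.2 in shLINC01977 libraries (SD, n = 3 each, exact permutation test p = 0.2). The log2 ratio of IGF2BP2 to IGF2BP1 was -0.77 ± 0.042 in shNC libraries and -0.88 ± 0.062 in shLINC01977 libraries (SD, n = 3 each), and the groups did not overlap (exact permutation test p = 0.1, the smallest possible, adjusted p = 0.25 over 5 ratios tested). The shift, -0.11, kept its sign with each library left out, between -0.13 and -0.074. The ratios of IGF2BP3 to IGF2BP1 and of IGF2BP2 to IGF2BP3 differed by -0.14 and 0.026 between the groups (exact permutation test p = 0.5 and 0.6) and changed sign with single libraries left out.

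**Figure D2:**
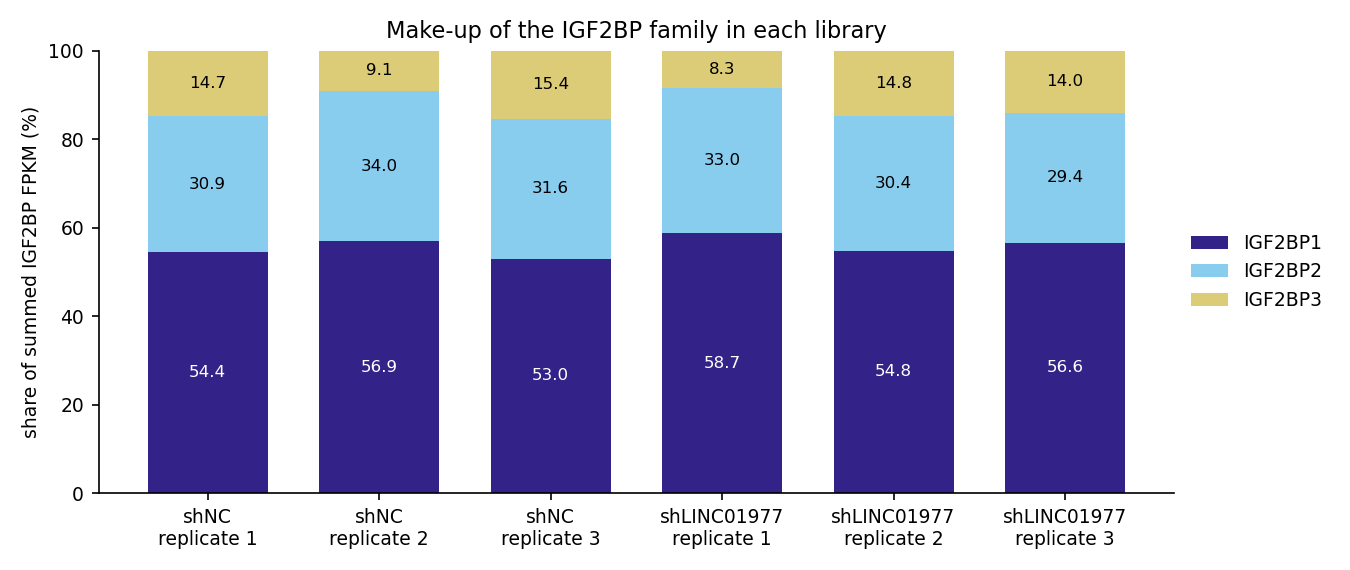
Share of IGF2BP1, IGF2BP2 and IGF2BP3 in their summed FPKM (%, stacked to 100) in each of the 6 libraries. IGF2BP3 falls to 9.07% in shNC replicate 2 and 8.34% in shLINC01977 replicate 1 and is between 14.0% and 15.4% in the other 4 libraries.

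Among the writers, METTL3 (ENSG00000165819, chromosome 14, 21498133 to 21511375, minus strand) had 82.5, 77.2 and 82.0 CPM in the shNC libraries and 88.3, 91.7 and 86.6 CPM in the shLINC01977 libraries. The groups did not overlap. Its log2FC was 0.14 ± 0.053 (SE, edgeR adjusted p = 0.126), a 1.10-fold difference with a 95% interval from 1.01 to 1.20. METTL3 shares 388 exon bases with TOX4 on the opposite strand, which had 3783 to 5266 counts per library.

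METTL14 (ENSG00000145388, chromosome 4, 118685368 to 118715433) had 13.88, 12.99 and 13.96 CPM in the shNC libraries and 20.2, 16.9 and 14.8 CPM in the shLINC01977 libraries. The knockdown libraries were all higher but spread widely, and shLINC01977 replicate 3 was only just above the controls. In edgeR this gave a log2FC of 0.35 ± 0.13 (SE, adjusted p = 0.122), and it was 0.22 without shLINC01977 replicate 1. The log2 FPKM ratio of METTL14 to its partner METTL3 was -2.79 ± 0.010 in shNC libraries and -2.59 ± 0.22 in shLINC01977 libraries (SD, n = 3 each, exact permutation test p = 0.1, adjusted p = 0.25 over 5 ratios). The difference of 0.19 was 0.071 without shLINC01977 replicate 1 and 0.28 without shLINC01977 replicate 3.

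WTAP (ENSG00000146457, chromosome 6, 159725585 to 159756319) had the smallest log2FC of the writers. Its CPM was 115, 121 and 124 in the shNC libraries and 113, 115 and 116 in the shLINC01977 libraries. The groups overlapped at the lowest control library. The edgeR estimate on the log2 scale was -0.069 ± 0.047 (SE, adjusted p = 0.371), and with library totals it was -0.0034. WTAP shares 298 exon bases with SOD2 on the opposite strand.

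Of the erasers, ALKBH5 (ENSG00000091542, chromosome 17, 18183078 to 18209954) had 83.7, 87.7 and 77.9 CPM in the shNC libraries and 75.3, 74.4 and 66.2 CPM in the shLINC01977 libraries. Every knockdown library was under every control library. Its log2FC was -0.21 ± 0.074 (SE, edgeR adjusted p = 0.114), or 0.866-fold with a 95% interval from 0.766 to 0.980. It kept its sign in all 17 alternatives run, between -0.25 and -0.14, with no adjusted p under 0.0799.

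FTO (ENSG00000140718, chromosome 16, 53701692 to 54158512) had 28.5, 31.7 and 50.1 CPM in the shNC libraries and 27.7, 27.4 and 41.4 CPM in the shLINC01977 libraries. Replicate 3 was the high library in each group, and the groups overlapped. In edgeR this gave a log2FC of -0.19 ± 0.26 (SE, adjusted p = 0.659), with a 95% interval from 0.572-fold to 1.34-fold. It turned to 0.099 without shNC replicate 3 and was -0.42 without shLINC01977 replicate 3. The log2 ratio of ALKBH5 to FTO differed by -0.032 between the groups (exact permutation test p = 0.8).

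**Figure D3:**
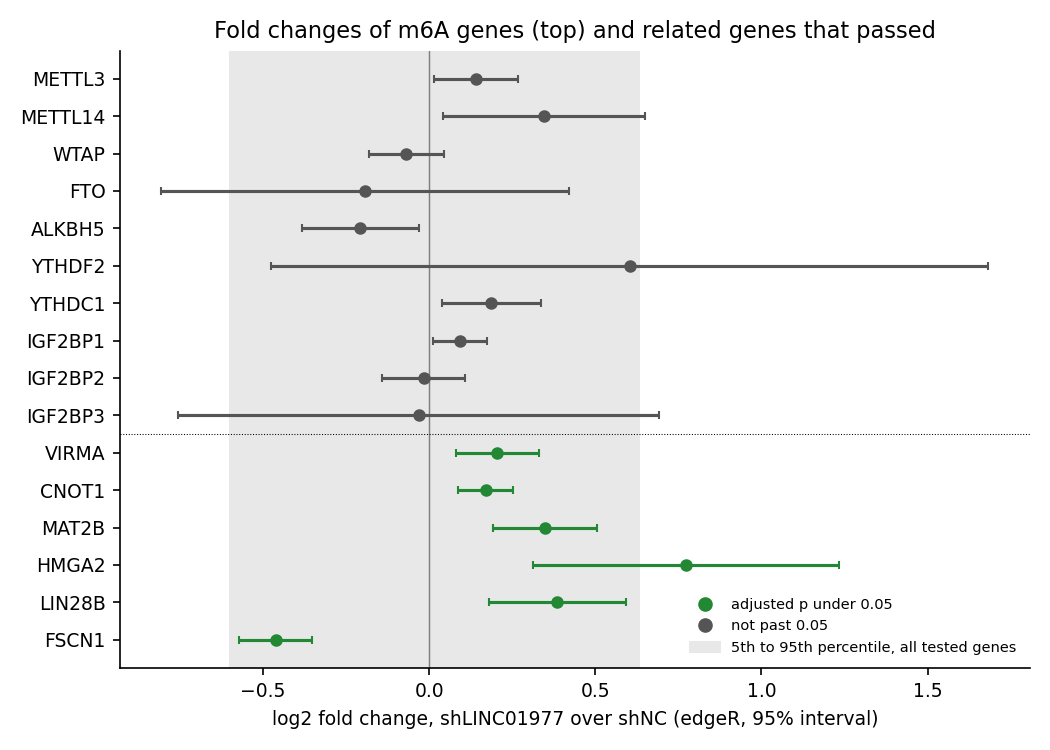
Log2 fold change of each m6A gene (above the dotted line) and of the related genes that passed the test (below it), with 95% intervals from edgeR. The shaded band is the range from the 5th to the 95th percentile of all tested genes, -0.60 to 0.63, and the widest intervals among the 10 genes are those of YTHDF2, IGF2BP3 and FTO.

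Of the YTH readers, YTHDF2 (ENSG00000198492, chromosome 1, 28736621 to 28769775) had 99.3, 63.8 and 23.3 CPM in the shNC libraries and 93.2, 96.9 and 93.1 CPM in the shLINC01977 libraries. The knockdown libraries lay close together, while the control libraries spanned a 4.27-fold range with shNC replicate 1 above every knockdown library. The edgeR estimate on the log2 scale was 0.60 ± 0.45 (SE, adjusted p = 0.414), and its 95% interval ran from 0.719-fold to 3.21-fold. It was 0.21 without shNC replicate 3 and 1.12 without shNC replicate 1. The within-group SD of YTHDF2 was 0.76 on the log2 CPM scale, at the 96.1st percentile of tested genes.

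YTHDC1 (ENSG00000083896, chromosome 4, 68310387 to 68350089, minus strand), the nuclear reader, had 66.5, 71.4 and 70.3 CPM in the shNC libraries and 76.1, 76.7 and 84.3 CPM in the shLINC01977 libraries. The groups did not overlap. Its log2FC was 0.19 ± 0.063 (SE), and its adjusted p of 0.0975 was the smallest among the 10 genes in edgeR. Over the 17 alternatives the value stayed between 0.14 and 0.25 with adjusted p from 0.0550 to 0.231.

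In levels per length the 10 genes spanned a wide range. In FPKM of the shNC libraries (mean ± SD, n = 3 each), IGF2BP1 was at 36.9 ± 0.34, IGF2BP2 at 21.7 ± 0.82, ALKBH5 at 20.7 ± 1.2, WTAP at 16.3 ± 0.74 and YTHDF2 at 12.7 ± 7.7. METTL3 followed at 10.8 ± 0.36 FPKM, IGF2BP3 at 8.84 ± 2.6, YTHDC1 at 7.83 ± 0.37, METTL14 at 1.57 ± 0.061 and FTO at 1.37 ± 0.44. Neighbours in this order whose shNC libraries did not overlap were IGF2BP1 and IGF2BP2, ALKBH5 and WTAP, and YTHDC1 and METTL14, and the other 6 neighbouring pairs overlapped. IGF2BP1 stood at the 93.8th percentile of tested genes by mean FPKM and FTO at the 19.9th.

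The deposited FPKM values follow the merged length of all annotated exons for 9 of the 10 genes, whose implied length was 1.226 to 1.229 times that length, while for WTAP the ratio was 1.114. This affects the order, because FTO, with 19 listed transcripts, has 21379 bases of exon but a longest transcript of 11766 bases, and METTL3 has 5894 and 2523. With counts divided by the longest transcript instead, IGF2BP1 and IGF2BP2 stayed at ranks 1 and 2, YTHDC1 stayed at rank 8, ALKBH5 moved from rank 3 to rank 5, WTAP from 4 to 3, YTHDF2 from 5 to 7, METTL3 from 6 to 4 and IGF2BP3 from 7 to 6, and FTO and METTL14 exchanged ranks 9 and 10.

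**Figure D4:**
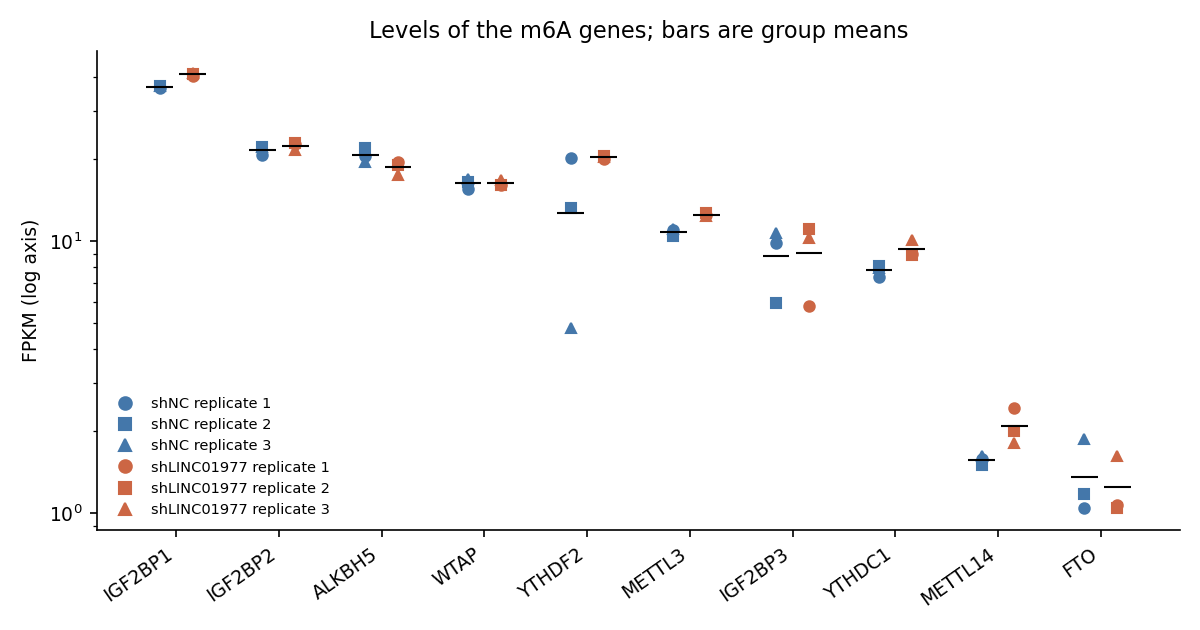
FPKM (log axis) of the 10 m6A genes in each library, ordered by the shNC mean, with bars at the group means. IGF2BP1 lies above all others in every library, and METTL14 and FTO lie below 2.5 FPKM.

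Other genes of the m6A pathway were read from a list of 29, all of which were tested. In edgeR 3 of these passed as higher and 0 as lower after adjustment (p under 0.05), against 7.05% and 8.07% of all tested genes, and at an unadjusted p under 0.05 there were 6 higher and 2 lower, against 15.1% and 15.4%. Their median log2 fold change was 0.019. VIRMA, the scaffold of the writer complex, rose from 64.1, 68.4 and 66.3 CPM in the shNC libraries to 74.2, 77.5 and 77.4 CPM in the shLINC01977 libraries (log2FC 0.21 ± 0.052, adjusted p = 0.0438). The other 4 subunits of the complex in the list, RBM15, RBM15B, ZC3H13 and CBLL1, did not pass. CNOT1, the scaffold of the CCR4-NOT deadenylase that YTHDF2 recruits, had a log2FC of 0.17 ± 0.034 (SE, adjusted p = 0.0204), from 409, 422 and 418 CPM to 467, 464 and 475 CPM. MAT2B, a regulatory subunit of the enzyme that makes the methyl donor S-adenosylmethionine, rose from 46.5, 51.8 and 50.7 CPM to 65.8, 60.7 and 63.4 CPM (log2FC 0.35 ± 0.065, adjusted p = 0.0159), while the catalytic subunit MAT2A was at -0.10 (adjusted p = 0.165). Each of these calls was lost in some settings. The adjusted p was above 0.05 in 8 of 17 alternatives for VIRMA and for CNOT1, including whichever library was left out, with the highest at 0.121 and 0.0708. For MAT2B it was above 0.05 in 3 of 17, at 0.0506 without shLINC01977 replicate 1, 0.0514 without shLINC01977 replicate 3 and 0.0562 with the replicate number as a block.

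The other YTH readers lay higher in knockdown libraries without passing the adjusted test. YTHDF1 and YTHDC2 had log2 fold changes of 0.18 and 0.18 (adjusted p = 0.0657 and 0.140 from edgeR). The groups did not overlap for either gene. In the list of 29 this was so for 7 genes higher and 3 lower, against 18.8% and 18.3% of all tested genes. YTHDF3, which cooperates with YTHDF2, had the largest value of the list, 1.02 ± 0.40 (SE, edgeR adjusted p = 0.145). Its CPM was 19.7, 15.5 and 20.6 in the shNC libraries and 54.3, 42.2 and 16.3 in the shLINC01977 libraries, so shLINC01977 replicate 3 lay among the controls, and without it the log2 fold change was 1.37 (adjusted p = 0.0105).

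Transcripts that IGF2BP proteins are known to bind were listed as 11 genes, of which 9 were tested, since H19 and CD44 were below the filter. In edgeR 2 rose and 1 fell at an adjusted p under 0.05, against 7.05% and 8.07% of all tested genes. HMGA2, an oncofetal chromatin protein, rose from 224, 130 and 210 CPM in the shNC libraries to 316, 342 and 308 CPM in the shLINC01977 libraries (log2FC 0.77 ± 0.19, adjusted p = 0.0413). LIN28B, an oncofetal inhibitor of let-7 processing, rose from 80.0, 84.9 and 97.9 CPM to 108, 116 and 119 CPM (log2FC 0.39 ± 0.086, adjusted p = 0.0293). FSCN1, which bundles actin filaments, fell from 334, 337 and 347 CPM to 259, 238 and 242 CPM (log2FC -0.46 ± 0.046, adjusted p = 0.00188). The calls of HMGA2 and LIN28B were each lost in 6 of 17 alternatives, and that of FSCN1 held in all 17. For HMGA2 the adjusted p was 0.0729 without shNC replicate 3 and 0.0977, 0.116 and 0.0892 without shLINC01977 replicates 1, 2 and 3. For LIN28B it was 0.0765 and 0.0862 without shNC replicates 1 and 2, and 0.0513, 0.0871 and 0.0901 without shLINC01977 replicates 1, 2 and 3.

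MYC, the best known IGF2BP target, had 173, 177 and 169 CPM in the shNC libraries and 159, 161 and 7.24 CPM in the shLINC01977 libraries. Replicate 3 of the knockdown was thus far below every other library, and the log2FC of -0.67 ± 0.89 (SE, adjusted p = 0.659 from edgeR) became -0.12 without it. IGF2 had 210, 258 and 104 CPM in the shNC libraries and 183, 171 and 64.9 CPM in the shLINC01977 libraries, with replicate 3 lowest in both groups (log2FC -0.45, edgeR adjusted p = 0.559). Its log2FC was -0.17 without shNC replicate 2, -0.74 without shNC replicate 3, -0.69 without shLINC01977 replicate 1 and -0.10 without shLINC01977 replicate 3.

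**Figure D5:**
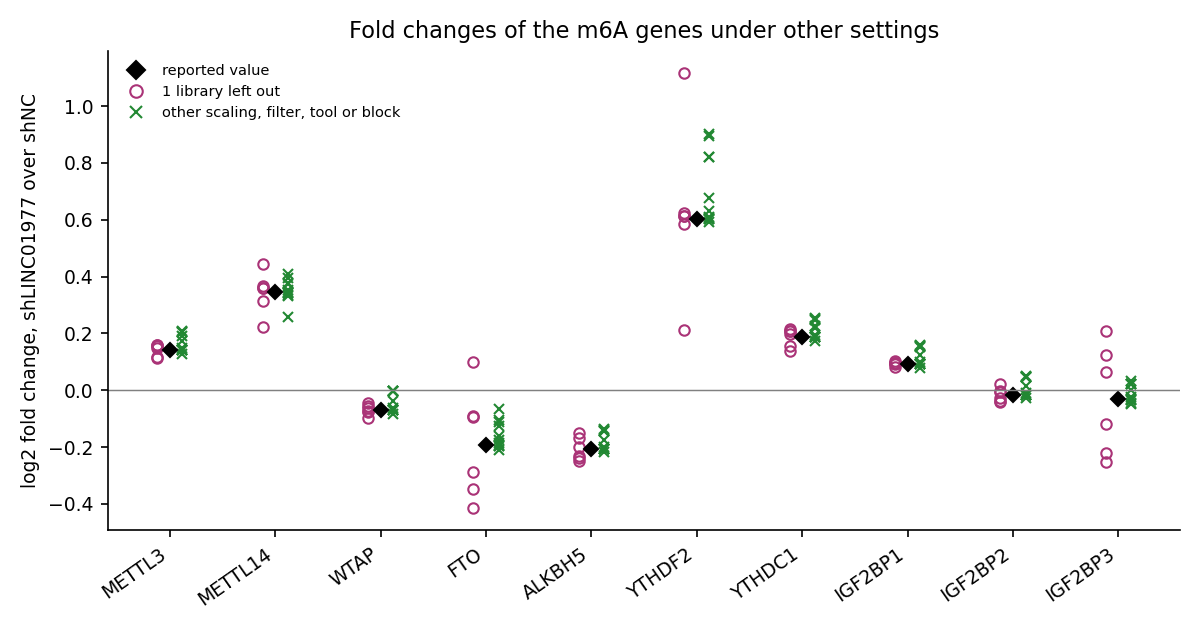
Log2 fold change of each m6A gene as reported (diamonds), with 1 library left out (circles) and under other scalings, filters, tools or the replicate block (crosses). YTHDF2 ranges from 0.21 to 1.12, and METTL3, METTL14, YTHDF2, YTHDC1 and IGF2BP1 stay above 0 and WTAP and ALKBH5 below 0 in all settings.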

How the data were processed

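For the 6 HepG2 libraries, RNA was isolated in TRIzol, and an Illumina HiSeq was used for sequencing. The submitters' processing notes name bcl2fastq 2.0, HISAT2, StringTie, DESeq2, limma and build hg38, without roles. Per gene, the authors deposited unnormalized whole-number counts. Beside them the authors deposited FPKM, which divides by gene length and sequencing depth. Count, FPKM and total imply a length 1.228 times the exon union of GENCODE 29 (median of 11869 genes, quartiles 1.226 and 1.23), a nearly constant ratio. Of 29153 identifiers 29051 are in GENCODE 29, so coordinates are GRCh38. Site sequences come from the GENCODE 29 transcripts and the hairpin from the study's supplement.

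Counts were tested with edgeR 4.0.16 in R 4.3.3 (TMM, quasi-likelihood, Benjamini-Hochberg), over 13452 genes averaging 0.5 FPKM or more. The 95% intervals use the t distribution of that fit. Ratios and shares were compared by exact two-sided permutation tests. DESeq2 1.42.0 and limma 3.58.1 were alternatives, beside other scalings, filters, pseudocounts, counts divided by 4, a replicate block and each library left out. The fits were also run on simulated counts. The changes planted there were larger than those of the 10 members, so that run does not bear on changes of their size. The members and lists were chosen with earlier results of these data known. All 10 members are named, other listed genes where they passed the test or bounded a range, and MYC, IGF2, YTHDF1, YTHDC2, MAT2A and METTL16 after their values were seen.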

Additional observations from a re-analysis of the deposited data

How the results depend on the processing

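Of the 10 m6A genes, 0 were called lower in all 17 alternatives, and 0 were called higher in 13 of them but 2 (METTL3 and IGF2BP1) with library totals and with limma on log2(FPKM + 0.1), log2(FPKM + 1) and log2(FPKM + 0.01). None of these settings used TMM, and the cause was not tested. Over all genes, 948 were called higher, against 1455 with library totals and 549 to 669 with 1 library left out, and 1085 lower, against 722 with limma on log2(FPKM + 0.01) and 627 to 738 with 1 library left out, where fewer samples were tested. Genes past the study's thresholds, 350, were 1083 without a filter, 225 among genes averaging 1 FPKM or more and 100 with limma on log2(FPKM + 1). Libraries of a group differed by up to 1.76-fold to 4.27-fold for YTHDF2, IGF2BP3 and FTO. For METTL3 and IGF2BP1 they differed by at most 1.07-fold and 1.03-fold. The part that this spread plays in the counts of calls was not tested.

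The value of IGF2BP2, -0.016, changed sign to 0.049 with library totals, 0.015 with upper quartile scaling, 0.048, 0.046 and 0.048 with limma on log2(FPKM + 0.1), log2(FPKM + 1) and log2(FPKM + 0.01), and lay between -0.041 and 0.021 with 1 library left out. That of IGF2BP3, -0.032, became 0.034, 0.00087, 0.022, 0.021 and 0.022 in the same order, and lay between -0.25 and 0.21 with 1 library left out. FTO lay between -0.42 and 0.099 with 1 library left out. With 1 library left out, the difference between groups ranged from -0.41 to 0.15 for the log2 ratio of IGF2BP3 to IGF2BP1, from -0.28 to 0.31 for IGF2BP2 to IGF2BP3 and from -0.32 to 0.22 for ALKBH5 to FTO.

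Over all tested genes, same-numbered libraries of the 2 groups did not deviate together (correlations of -0.032, 0.0044 and 0.063), so the replicate numbers were not read as pairs. FTO and IGF2 were exceptions, with replicate 3 apart in both groups. With the replicate number as a block, FTO was at -0.17 ± 0.076 (SE, edgeR adjusted p = 0.212, against 0.659 without it). IGF2 was then at -0.49 ± 0.11 (SE, edgeR adjusted p = 0.0598, against 0.559 without it). With the replicate block 636 genes were higher and 754 lower, 0 of the 10 m6A genes were called, VIRMA, CNOT1, MAT2B and HMGA2 were no longer called, IGF2BP2 had a log2 fold change of -0.017 and LINC01977 of -2.50. LINC01977 lay between -5.73 and -0.050 over 15 alternatives, DESeq2 gave it no adjusted p, and a filter of 1 FPKM left it out.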

Other observations

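Libraries that stand apart within a group were not the same ones for each gene. Among tested genes averaging 5 FPKM or more, a limit chosen after the data were seen, 619 of 5988 (10.3%) differed by more than 1.5-fold between libraries of a group. Of the 37 such genes among the m6A genes and the IGF2BP targets, 5 did (13.5%), namely YTHDF2, IGF2BP3, MYC, IGF2 and HMGA2. YTHDF2 was lowest in shNC replicate 3, IGF2BP3 in shLINC01977 replicate 1, MYC and IGF2 in shLINC01977 replicate 3 and HMGA2 in shNC replicate 2. In the same libraries IGF2BP1 stayed between 421 and 459 CPM. METTL16, a further m6A methyltransferase below that limit, had 16.7, 16.4 and 29.1 CPM in the shNC libraries and 28.5, 46.4 and 19.6 CPM in the shLINC01977 libraries (log2 fold change 0.60, adjusted p = 0.307 from edgeR).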
